A study of Caenorhabditis elegans with 18 samples.

Results

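The interaction of nhr-45 loss with antimycin asks, gene by gene, whether the transcriptional response to antimycin A differs between nhr-45 mutant and wild-type Caenorhabditis elegans. It is the change from DMSO to antimycin in nhr-45(tm1307) animals minus the same change in the wild-type strain N2 (WT), so a positive value means a more positive response in the mutant. All genes that passed a low count filter were members, which were 10981 of the 23368 genes in the deposited table. The 4 groups were WT in DMSO, WT in 0.3 µM antimycin A, nhr-45(tm1307) in DMSO and nhr-45(tm1307) in 0.3 µM antimycin A, with 3 libraries each, 12 of the 18 in the series. The other 6 libraries, from nhr-178(gk1005) animals in DMSO and in antimycin, did not enter the contrast, but shared its low count filter and its estimate of the spread between libraries, and were a second strain in which the same genes could be read. Worms were synchronised as L1 larvae, fed Escherichia coli HT115 with DMSO or the drug, and collected whole as early adults, many animals pooled to a sample. Both the mutant and WT controls received DMSO, and each mutant is represented by 1 allele. Replicates are numbered in the labels without a statement of separate cultures, so a p-value reflects only how much these libraries vary. RNA of whole animals was read, so fewer cells of a type and less RNA per cell cannot be told apart.

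Antimycin A blocks complex III of the mitochondrial respiratory chain and is a product of Streptomyces bacteria. C. elegans answers respiratory poisons with genes that neutralise foreign compounds: cytochromes P450 oxidise them, UDP-glucuronosyltransferases and glutathione S-transferases attach a sugar or glutathione, and ABC transporters export the product. Much of this takes place in the intestine. NHR-45 belongs to the nuclear hormone receptors, transcription factors whose activity can be set by small lipophilic ligands and whose family is much expanded in nematodes.

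Total counts over the 12 libraries ran from 1772887 in nhr-45 in antimycin replicate 2 to 9488037 in WT in DMSO replicate 3, and WT in antimycin replicate 1 was the next shallowest with 3143437. Levels are CPM, counts scaled to library size with TMM factors, and a change is a log2 fold change with its standard error (SE). A gene was called when its Benjamini-Hochberg adjusted p in edgeR's quasi-likelihood test was below 0.05. The counts of nhr-45 itself did not mark the genotype: its level was 4.51, 6.42 and 6.71 CPM in WT in DMSO and 3.33, 5.82 and 3.73 CPM in the mutant in DMSO, and the groups overlapped. A total over the gene does not show whether part of it is deleted.

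The interaction was called for 514 genes, 4.68% of those tested, with 372 (3.39%) more positive in nhr-45 and 142 (1.29%) more negative. Sorting used this call together with the calls for antimycin in WT and in nhr-45, so the values that follow for the sorted genes describe the classes and do not test them. Antimycin was called for 330 genes in WT (3.01% of those tested, with 2.07% higher and 0.938% lower) and for 2585 in nhr-45 (23.5%, with 15.2% higher and 8.33% lower). Of the 330, 38 (0.346% of genes tested) had lost the response in nhr-45, meaning that the interaction opposed the WT change and antimycin was not called in the mutant. In 7 more the response was reduced but still called, and in 7 it was reversed. It was kept in 111 (1.01%), called in the same direction in both strains with no interaction, and enlarged in 33 (0.301%). The other 134 were unresolved: neither a difference from WT nor a response in the same direction in the mutant was called. A further 403 genes, 3.67% of those tested, had a new response, called in nhr-45 and not in WT, with the interaction called as well.

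**Figure D1:**
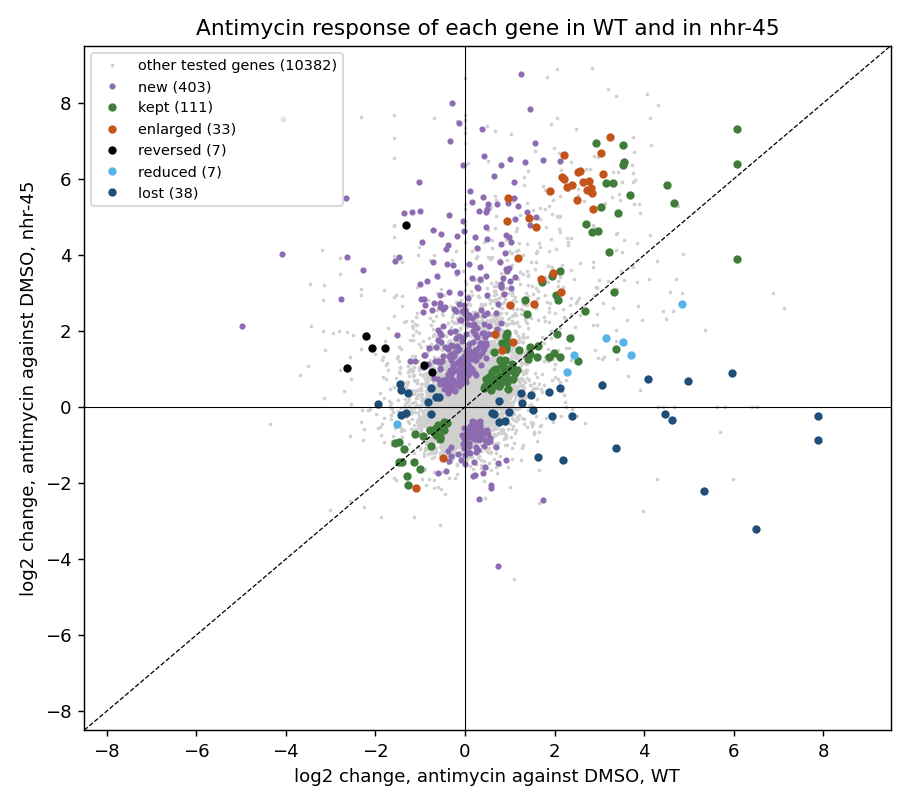
Each point is 1 tested gene, with its log2 change from DMSO to antimycin in WT on the x axis and in nhr-45 on the y axis. Points on the dashed line changed equally. For the 38 lost genes no change was called in nhr-45, and most lie near the horizontal line at 0, with spig-6 farthest from it at -3.21 and a mean of 1.41 CPM. The 33 enlarged genes lie farther from 0 than the dashed line, and for the 403 new genes no change was called in WT; 2 tested genes that fall in none of the 6 named classes lie outside the axes.

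The lost inductions were led by detoxification genes. Of the 27 genes (0.246% of those tested) raised in WT and lost in nhr-45, 10 belonged to the detoxification lists, which hold 148 of all genes tested: 6 UDP-glucuronosyltransferases, 3 cytochromes P450 and 1 ABC exporter. ugt-9 (WBGene00020587) was read at 10.1, 8.25 and 6.6 CPM in WT in DMSO and at 1725, 1974 and 2164 CPM in WT in antimycin. In nhr-45 it was at 9.19, 4.32 and 6.05 CPM without the drug and at 4.73, 9.68 and 5.15 CPM in antimycin. The mutant's groups thus overlapped each other and the WT DMSO range. The interaction was -8.10 ± 0.39 (SE, 95% interval -8.89 to -7.31, adjusted p = 3.6e-14). In nhr-178 animals the same gene rose from between 4.85 and 12.1 CPM to between 1451 and 1550 CPM.

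Its neighbours on chromosome V moved with it, at other sizes. ugt-11 (V:4892588-4895071), ugt-12 (V:4887165-4889629) and ugt-9 (V:4896048-4897969) have starts within 8883 bp of each other in the WBcel235 annotation. ugt-11 went from 3.92, 2.23 and 3.14 to 23.4, 26.9 and 27.3 CPM in WT, and from 2.4, 2.39 and 3.26 to 3.9, 3.76 and 4.12 CPM in nhr-45. All 3 antimycin libraries of the mutant lay above its DMSO libraries and far below those of WT (interaction -2.47 ± 0.38, adjusted p = 1.5e-04). ugt-12 went from between 10.3 and 13 to between 42 and 54 CPM in WT, and stood at 12, 11.2 and 16.5 CPM in DMSO and 9.11, 15.1 and 11.2 CPM in antimycin in nhr-45 (interaction -2.18 ± 0.30, adjusted p = 3.5e-05).

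ugt-61 (V:4742422-4745373) was near its floor outside the responding groups. It had 1.19, 0.524 and 0.649 CPM in WT in DMSO and 47.8, 46.3 and 56.9 CPM in WT in antimycin. Both nhr-45 groups rested on few reads, 9 counts over the 3 DMSO libraries and 15 over the 3 antimycin libraries, at up to 1.18 CPM (interaction -5.07 ± 0.81, adjusted p = 2.0e-04). ugt-1 and ugt-2, whose starts are 3138 bp apart and whose reads could be split between near-identical sequences, reached 37.6 to 55.9 and 16.3 to 20.6 CPM in WT in antimycin. In nhr-45 in antimycin neither exceeded 2.06 CPM.

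The lost inductions also held 3 P450 genes and 1 exporter gene. cyp-25A2 (III:3835221-3837211), a cytochrome P450 gene, went from 1.78, 4.06 and 1.95 to 51.7, 71.5 and 65.8 CPM in WT and was at 2.13, 0.538 and 0.515 CPM in nhr-45 in antimycin. Its interaction was -4.97 ± 0.57 (adjusted p = 1.6e-06). Its neighbour cyp-25A1, 2630 bp away, was also lost, at a mean of 2.86 CPM over the 12 libraries. cyp-33C5 reached 143, 172 and 203 CPM in WT in antimycin and 0.237, 1.61 and 0 CPM in nhr-45, where 5 counts were read in all. The P-glycoprotein gene pgp-9 rose from between 0.433 and 1.57 to 26.7, 20.5 and 36.7 CPM in WT and was at 2.01, 3.23 and 3.77 CPM in nhr-45 in antimycin against 2, 1.94 and 1.16 CPM in DMSO (interaction -4.27 ± 0.59, adjusted p = 3.5e-05).

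**Figure D2:**
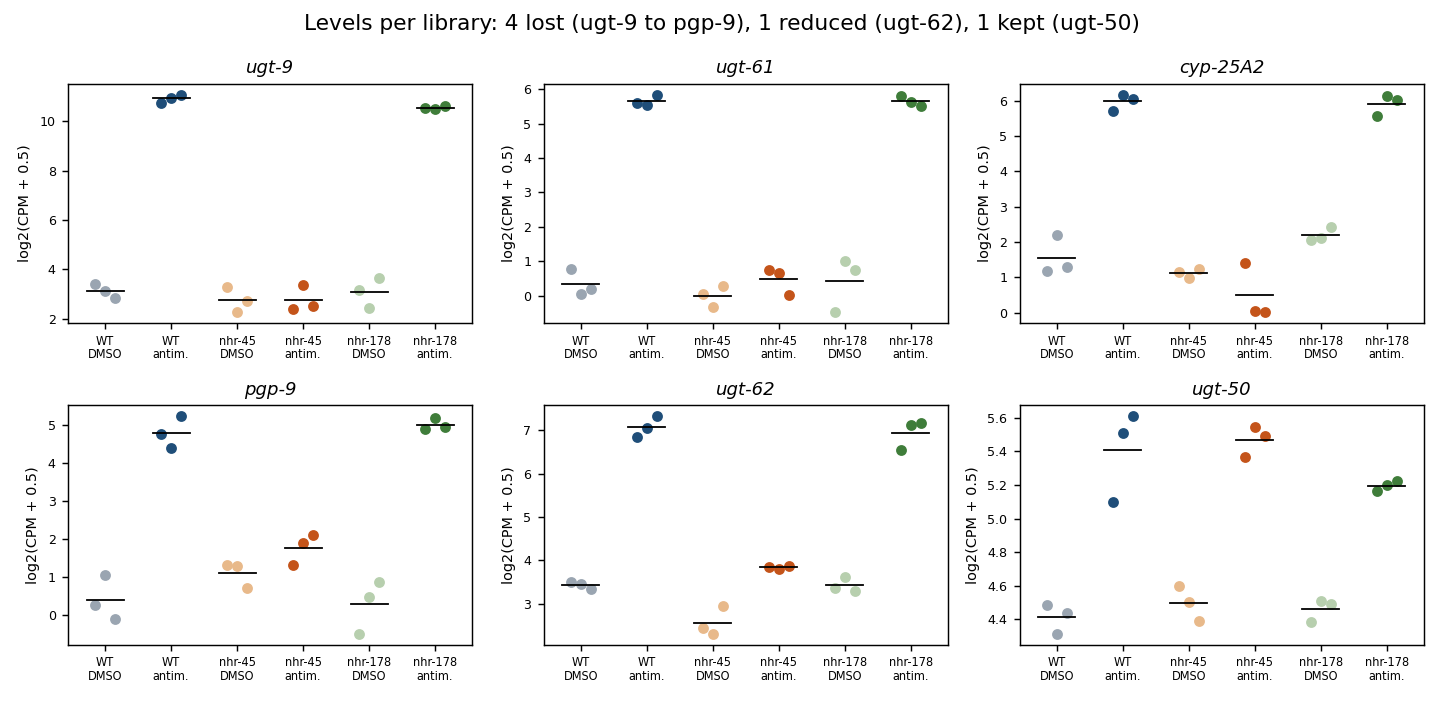
Levels as log2(CPM + 0.5) on the y axis for each of the 18 libraries, by group on the x axis; points are libraries and bars are group means. For ugt-9, ugt-61, cyp-25A2 and pgp-9 the WT and nhr-178 libraries in antimycin stand high and the nhr-45 libraries in antimycin stay near DMSO levels. ugt-62 rose in the mutant to a lower level than in WT, and ugt-50 rose to overlapping levels in both.

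Outside those families, lost inductions included far-3, a fatty acid and retinol binding protein gene, and mfsd-13.2, of the major facilitator transporters. far-3 was also low without the drug: 10.6, 11.1 and 6.28 CPM in WT in DMSO against 2.4, 2.09 and 3.49 CPM in nhr-45 in DMSO. That difference was called (-1.84, adjusted p = 0.00350), and far-3 overlaps far-5 in the annotation. In the 27 lost genes as a group, however, the DMSO level was called lower in the mutant for 1 (background 0.820%) and higher for 1 (0.719%). In antimycin it was called lower for 24 (background 4.37%), and in 26 of 27 every nhr-45 library lay below every WT library, against 12.8% of all genes. The antimycin and DMSO libraries did not overlap for 27 of 27 in WT (20.1% of all genes) and for 6 of 27 in nhr-45 (36%). These comparisons reuse the libraries that sorted the genes.

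The lost inductions emb-8, vem-1 and hrg-7 were named after their values were seen. emb-8, which encodes NADPH-cytochrome P450 reductase, the enzyme that feeds electrons to P450s, went from between 387 and 414 to 716, 587 and 736 CPM in WT. In nhr-45 it was at 372, 281 and 324 CPM in DMSO and 374, 385 and 328 CPM in antimycin (interaction -0.62 ± 0.17, adjusted p = 0.0359), and it overlaps moc-6. vem-1, a gene of the membrane-associated progesterone receptor family, rose from between 26.3 and 30.4 to between 70 and 88.6 CPM in WT and stayed between 19.9 and 28.8 CPM in nhr-45 in antimycin (interaction -1.16 ± 0.27, adjusted p = 0.0102). hrg-7, a heme-responsive gene that overlaps C15C8.7, went from 53.6, 51.5 and 67.1 to 122, 125 and 161 CPM in WT and from 59, 56.2 and 56.8 to 71.6, 79.1 and 71.9 CPM in nhr-45 (interaction -0.88 ± 0.20, adjusted p = 0.00952). Its nhr-45 groups did not overlap, although no response was called there (adjusted p = 0.0701).

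The muscle myosin heavy chain gene unc-54 differed from these in the second strain. It was at 1659, 1636 and 2072 CPM in WT in DMSO and at 4422, 3721 and 4826 CPM in WT in antimycin, and its nhr-45 groups overlapped (interaction -1.16 ± 0.25, adjusted p = 0.00581). In nhr-178 it was at 1176, 908 and 899 CPM in DMSO and 1102, 830 and 784 CPM in antimycin, and its response there also differed from WT (-1.41 ± 0.25, adjusted p = 0.00917). Of the 27 lost inductions, 20 were called higher in nhr-178, where 2.05% of all genes were (2.7% in either direction), with a median log2 change of 2.32 against 2.13 in WT. The nhr-178 levels were not compared in the sorting, but those libraries shared its filter and its estimate of the spread. Among the 27, 1 gene lies on the mitochondrial genome and is not described here.

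The reduced inductions were 6 genes that still rose in nhr-45, to a lower level. ugt-62 (III:4537281-4540623) rose from 10.9, 10.5 and 9.63 to 114, 131 and 159 CPM in WT, and from 4.93, 4.47 and 7.22 to 14, 13.4 and 14.1 CPM in nhr-45 (interaction -2.34 ± 0.30, adjusted p = 1.3e-05). The cadmium-responsive gene cdr-4 rose from between 10.6 and 13.6 to between 117 and 147 CPM in WT and from between 5.59 and 7.01 to between 19.9 and 22.1 CPM in nhr-45. Both genes were called lower in the mutant in DMSO, with log2 differences of -0.94 and -0.87, so the shortfall in antimycin was larger than the interaction. The gut protease gene cpr-1, of the cathepsin B family, reached 857, 1095 and 943 CPM in WT and 289, 317 and 281 CPM in nhr-45 (interaction -1.32 ± 0.21, adjusted p = 1.5e-04). All 6 were called higher in nhr-178 (2.05% of all genes).

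Not every induced detoxification gene could be placed. In these lists 19 induced genes were unresolved, and 6 of them had at most 3 counts over the 3 nhr-45 libraries in antimycin and also in DMSO, so the mutant gave no fold change to compare. The P450 genes cyp-33C2, cyp-13A7 and cyp-13A12 had 132, 72 and 31 counts over the WT libraries in antimycin and 0 over all nhr-45 libraries. A response in the mutant was not detectable at this depth. The glutathione S-transferase gene gst-33 had 173 counts in WT in antimycin and 1 in nhr-45 in antimycin. In 17 of the 19, every nhr-45 library in antimycin lay below every WT library (12.8% of all genes), and 14 were called lower (4.37%). These genes were sorted by a call in WT and none in the same direction in nhr-45, so the comparisons reuse the sorting libraries. ugt-53 and ugt-28 lay just outside the threshold of the interaction, with adjusted p = 0.0534 and 0.0518.

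By family, the interaction was called lower for 7 of 39 UDP-glucuronosyltransferases, 3 of 32 cytochromes P450 and 1 of 12 ABC exporters, with medians of -0.13, -0.68 and -0.68 beside 0.00 over all genes. The higher calls were 0, 0 and 1, the last being pgp-14. Of all genes tested, 1.29% were called lower and 3.39% higher. At an unadjusted p under 0.05, 2061 of all 10981 genes passed in either direction, and DESeq2 called 691. Of 29 glutathione S-transferases gst-28 was called higher and 0 lower, with 5 lower at an unadjusted p under 0.05 and 2 with DESeq2. Of 26 short-chain dehydrogenases 0 were called by edgeR, 1 was lower at an unadjusted p under 0.05 and 0 were called with DESeq2. Of 15 peroxisomal oxidation genes, which shorten very long fatty acids, 0 were called by edgeR and 0 with DESeq2, 4 were lower at an unadjusted p under 0.05, and the 3 induced in WT (daf-22, maoc-1 and acox-3) were unresolved, with interactions of -1.02, -0.68 and -1.90.

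**Figure D3:**
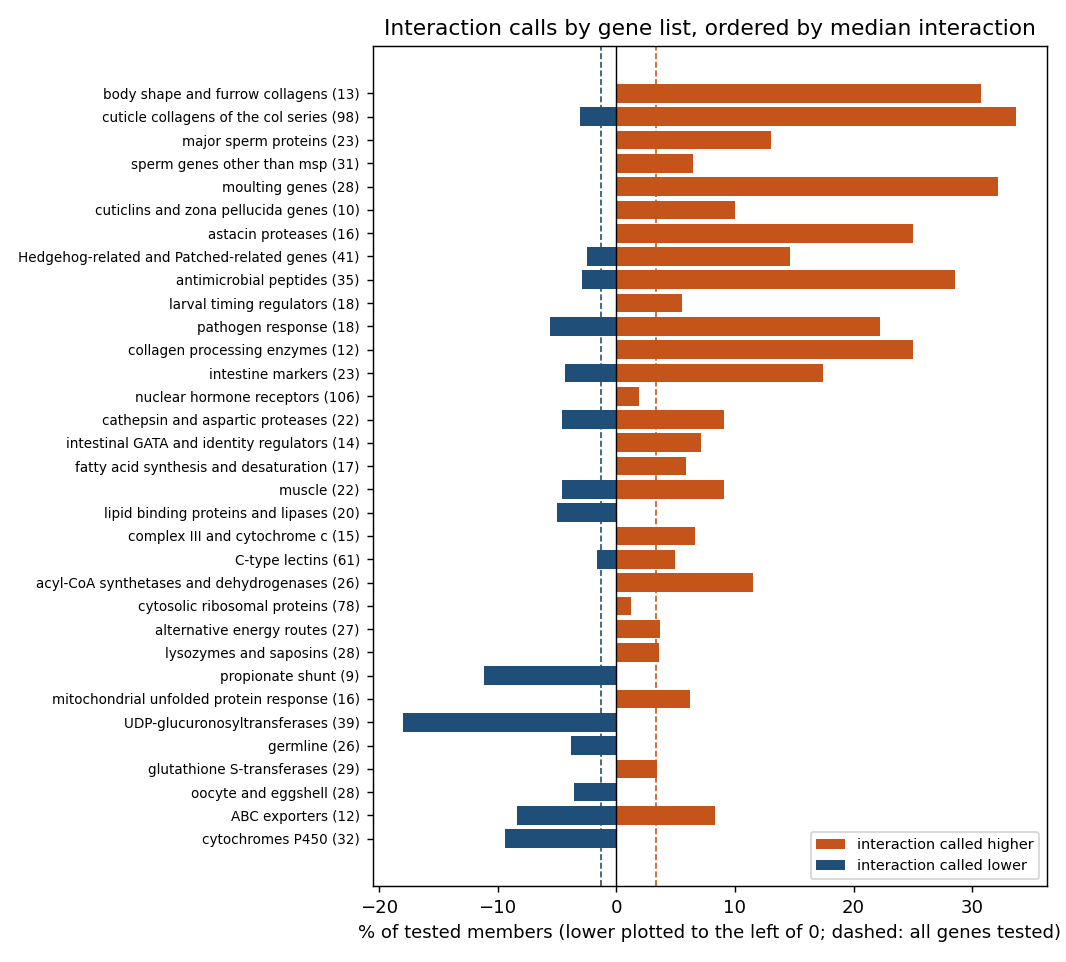
Share of tested members, in percent on the x axis, for which the interaction was called more positive in nhr-45 (right) or more negative (left), for lists with at least 9 tested genes and at least 1 call, with the number tested in parentheses. Dashed lines give the share over all genes, 3.39% and 1.29%. Cuticle, moulting and antimicrobial peptide lists extend mainly to the right. UDP-glucuronosyltransferases, P450s and the propionate shunt, lipid binding, oocyte and germline lists extend only to the left. ABC exporters have 1 of 12 on each side.

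Kept responses were called in the same direction in both strains with no interaction called, which does not show that the levels were equal. Of the 84 kept inductions (0.765% of genes tested) and 27 kept repressions (0.246%), 39 and 21 were kept closely, with the 95% interval of the interaction within 1 log2 unit of 0. ugt-50, which overlaps nhr-26, was the 1 kept UDP-glucuronosyltransferase: 21.9, 19.4 and 21.2 CPM became 33.8, 45.1 and 48.3 CPM in WT, and 23.7, 22.2 and 20.5 became 40.8, 46.2 and 44.4 CPM in nhr-45. Its interaction was -0.06, with an interval of -0.54 to 0.42. gst-6 rose from between 6.29 and 10.3 to between 19.9 and 23.3 CPM in WT and from between 3.73 and 6.11 to between 9.14 and 18.5 CPM in nhr-45. pmt-1, which methylates phosphoethanolamine for membrane lipid synthesis, rose from 362, 285 and 359 to 622, 790 and 707 CPM in WT and from 395, 343 and 551 to 665, 798 and 700 CPM in nhr-45. The small heat shock protein gene hsp-16.2, one of a set of near-identical genes, rose by 2.69 in WT and 2.53 in nhr-45, but its interval of -1.16 to 0.85 was too wide to count as closely kept. In antimycin 33 of the 84 kept inductions were called higher in nhr-45 than in WT (10.7% of all genes), and in 41 every nhr-45 library lay above every WT library (18.2%), in the libraries that sorted them. The body shape collagen gene dpy-5 was one of them, at 1.95, 1.66 and 2.42 CPM in WT in antimycin. In nhr-45 in antimycin it was at 31.9, 29 and 42.2 CPM. Its interaction of 3.37 ± 0.96 missed the threshold (adjusted p = 0.0563), and its WT DMSO libraries held 4 counts in all.

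Among kept repressions, the C-type lectin gene clec-48 fell from 25, 22.8 and 33.1 to 9.43, 11.4 and 8.39 CPM in WT and from 32.8, 30.1 and 31.7 to 14, 9.68 and 9.78 CPM in nhr-45. Its interaction was 0.01 ± 0.30. The collagen gene col-95 fell from unequal starts: 153, 170 and 138 CPM in WT in DMSO and 349, 341 and 382 CPM in nhr-45 in DMSO became 62.8, 70.8 and 56.2 CPM and 121, 85 and 93.5 CPM. Its interaction was -0.54 with an interval of -0.96 to -0.12 (adjusted p = 0.134). Of the 84 kept inductions, 29 were also called higher in nhr-178 (2.05% of all genes). The threshold matters at the edge: gst-12 counts as kept at an adjusted p of 0.0558, although it reached 24.1, 22.3 and 18.6 CPM in WT and 2.13, 0.538 and 3.43 CPM in nhr-45.

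The enlarged inductions were mostly genes of the cuticle, the collagen exoskeleton that nematodes shed and rebuild at each moult. Of 31 enlarged inductions (0.282% of genes tested, beside 2 enlarged repressions, 0.0182%), 17 belonged to the cuticle lists, which hold 227 of all genes tested. col-109 (IV:1817392-1820253) had 4.15, 3.14 and 2.92 CPM in WT in DMSO and 17.2, 13.3 and 15.9 CPM in WT in antimycin. In nhr-45 it went from 3.86, 3.73 and 9.78 to 302, 379 and 409 CPM, and antimycin and DMSO did not overlap in either strain. mlt-8 (II:569210-572110), named for a moulting defect, went from between 2.88 and 6.93 to 8.13, 11.4 and 10.2 CPM in WT and from between 5.67 and 8.15 to 177, 205 and 192 CPM in nhr-45 (interaction 3.95 ± 0.37, adjusted p = 3.8e-08). The body shape collagens dpy-13 and dpy-4 gave 3.29 ± 0.55 and 3.77 ± 0.66. In antimycin all 3 nhr-45 libraries lay above all 3 WT libraries for 31 of 31 (background 18.2%), and 30 were called higher (background 10.7%), in the libraries that sorted them. In DMSO 5 of the 31 were already called higher in nhr-45 (background 0.719%) and 2 lower (0.82%). All 3 DMSO libraries of nhr-45 lay above those of WT for 11 (830 of all 10981 genes) and below for 2. In nhr-178, 8 of the 31 were called higher (background 2.05%) and 1 lower (background 0.656%).

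Over whole lists, 33 of 98 col-series collagens were called higher in the interaction and 3 lower, with a median of 2.76. Their summed level, which the most abundant members set, was 20590 to 25109 CPM in WT in DMSO and 22790 to 22944 CPM in WT in antimycin. In nhr-45 it was 27953 to 31177 CPM in DMSO and 30754 to 33523 CPM in antimycin. The nhr-45 groups overlapped, and both lay above WT. The higher calls were 4 of 13 body shape and furrow collagens, 9 of 28 moulting genes, 4 of 16 astacin metalloproteases and 6 of 41 Hedgehog-related and Patched-related genes, which serve cuticle formation in nematodes. The lower calls were 0, 0, 0 and 1 in the same order. Over all genes 3.39% were called higher and 1.29% lower. Of the collagens 12 were enlarged, 20 new inductions and 7 kept inductions. Among the new inductions, col-91 went from 0.399, 1.19 and 0.466 to 103, 90.3 and 153 CPM in nhr-45 and was at 0.524 to 2.97 CPM in DMSO and 1.47 to 2.28 CPM in antimycin in WT (interaction 6.94 ± 0.73, adjusted p = 3.4e-07). The astacin gene nas-27 gave 4.72 ± 0.81, and acn-1, whose loss disturbs moulting and which overlaps pnk-4, 2.34 ± 0.46.

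Markers of stage moved in the same libraries. The summed level of 28 tested moulting genes was 247 to 266 CPM in WT in DMSO, 249 to 292 in WT in antimycin, 235 to 277 in nhr-45 in DMSO and 638 to 748 in nhr-45 in antimycin. That of 23 major sperm protein genes, whose members are near-identical, was 15.1 to 33.1, 40.2 to 64.1, 90.5 to 143 and 674 to 834 CPM in the same order. Vitellogenins, the yolk proteins made by the adult intestine, summed to 6767 to 8749, 4702 to 5073, 5982 to 9302 and 2299 to 3151 CPM over 6 genes. For major sperm proteins, 3 of 23 were called higher in the interaction (3.39% of all genes). Their median log2 change was 1.12 in WT, 2.71 in nhr-45 and 2.53 in nhr-178. Their nhr-178 sum was 0.217 to 7.27 CPM in DMSO and 10 to 22.3 CPM in antimycin. The nhr-178 sums overlapped for moulting genes (223 to 253 and 244 to 254 CPM) and vitellogenins (5545 to 6852 and 5161 to 6162 CPM). Of the 372 genes with a more positive response, 308 lay outside the cuticle, sperm, oocyte and yolk lists, as did 134 of the 142 with a more negative one. Those lists hold 314 of the 10981 genes tested (2.86%) and thus 64 of the 372 (17.2%) and 8 of the 142 (5.63%). The part of developmental stage in any class was not tested.

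The reversed genes were called lower in WT and higher in nhr-45, and there were 7 of them. col-10 (V:9164292-9165307) went from 5.22, 6.16 and 11.7 to 4.23, 2.4 and 2.99 CPM in WT, and from 2.53, 1.64 and 1.63 to 57.9, 45.7 and 59.5 CPM in nhr-45. dod-3, a gene downstream of the insulin pathway factor DAF-16, went from 8.66, 18.5 and 16.3 to 3.25, 4.24 and 2.84 CPM in WT, and from 6.13, 4.18 and 2.79 to 13.6, 15.1 and 11.3 CPM in nhr-45. Both had a lower DMSO level in the mutant, by a called difference of -1.96 and -1.68. T26H5.9 did not: 6.41, 5.89 and 7.58 CPM in WT and 5.46, 8.8 and 7.22 CPM in nhr-45 in DMSO became 1.3, 1.29 and 0.711 CPM and 13.1, 15.1 and 15.8 CPM in antimycin. In nhr-178, 3 of the 7 were called lower (0.656% of all genes), which are col-10, dod-3 and T26H5.9, and none higher (2.05%). Of the 7, 2 were still reversed at an adjusted p under 0.01 and 2 without WT in antimycin replicate 3, and 4 when replicate 2 or 3 of the WT group in DMSO, replicate 1 or 2 of the WT group in antimycin, or both shallow libraries were left out.

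**Figure D4:**
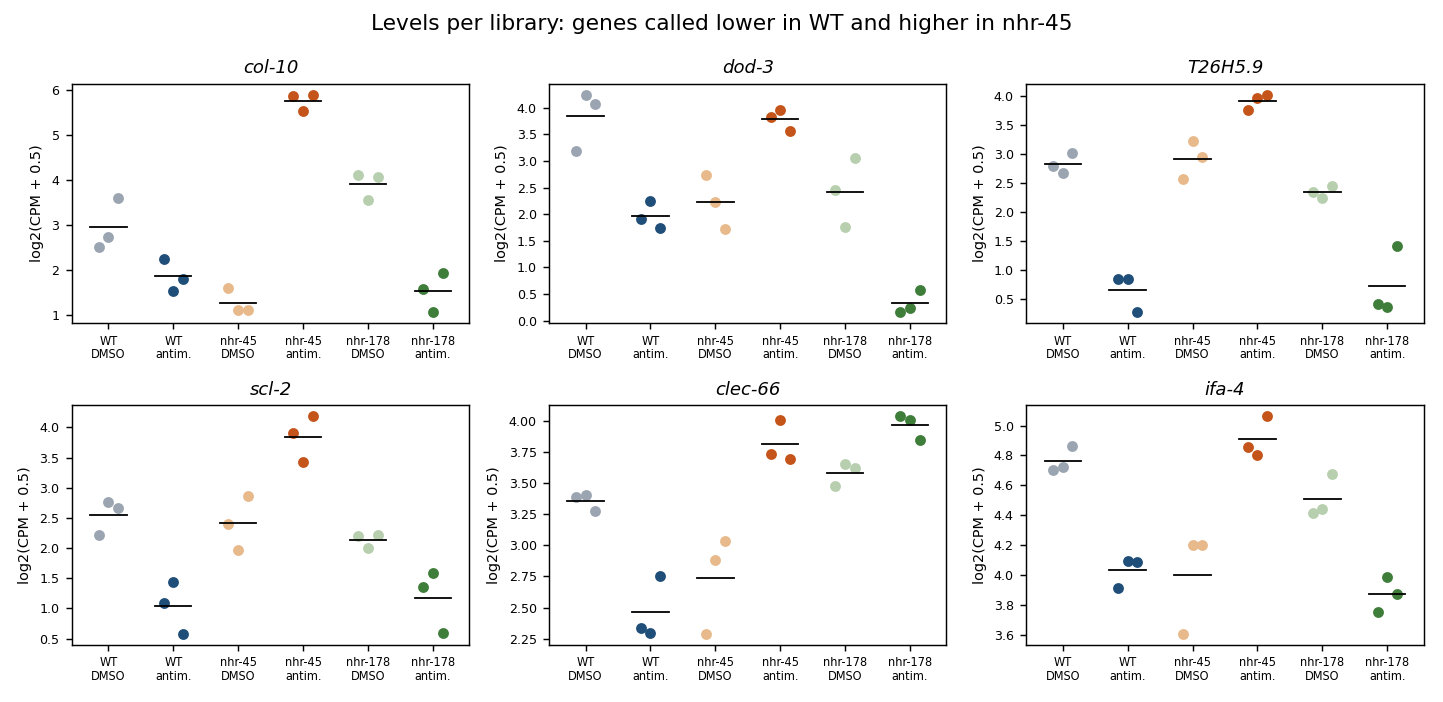
Levels as log2(CPM + 0.5) on the y axis for each of the 18 libraries, by group on the x axis, for 6 of the 7 reversed genes; points are libraries and bars are group means. In each panel the WT libraries in antimycin lie below those in DMSO and the nhr-45 libraries in antimycin lie above those in DMSO.

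Repressions were lost in 11 genes, 0.1% of those tested. In DMSO every nhr-45 library lay below every WT library for 6 of the 11 (7.42% of all genes), although 0 were called lower (0.82%). In antimycin 8 were called higher in nhr-45 than in WT (10.7%), in the libraries that sorted them. slc-9B.1, of the sodium/proton exchangers, fell from 23.4, 20.3 and 19.2 to 7.48, 7.92 and 7.82 CPM in WT and was at 15.7, 11.8 and 10.2 CPM in DMSO and 13.7, 9.14 and 9.09 CPM in antimycin in nhr-45, which overlapped. Its level in antimycin was not called different between the strains (log2 difference 0.50, adjusted p = 0.208). The gene overlaps npr-6 in the annotation and was named after its values were seen. In clec-218, a C-type lectin gene, the interaction was 1.87 ± 0.51 (adjusted p = 0.0314). The acid phosphatase gene pho-11, which overlaps C05C10.3, had a reduced repression, from 184, 140 and 190 to 69.3, 51.2 and 58.6 CPM in WT and from 136, 150 and 175 to 120, 108 and 109 CPM in nhr-45. Of the 11 lost repressions, 2 were called lower in nhr-178 (0.656% of all genes). Only 1 of the 11 remained lost without WT in antimycin replicate 2, 2 without replicate 3 of the same group or at an adjusted p under 0.01, and 3 without WT in DMSO replicate 1 or 3.

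New inductions numbered 309 (2.81% of genes tested) and new repressions 94 (0.856%), and 230 and 86 of them stood outside every list. Of 35 tested antimicrobial peptide genes, many of which act in the skin, 10 were called higher in the interaction, 9 as new inductions, and 1 lower. The shares over all genes were 3.39% higher and 1.29% lower. nlp-25 was at 44.8, 39.4 and 33.5 CPM in WT in DMSO and at 37.1, 34.6 and 36.8 CPM in WT in antimycin. In nhr-45 it was at 6.13, 6.26 and 7.45 CPM without the drug and at 50.5, 52.2 and 55.2 CPM in antimycin, so the response was a rise from a low DMSO level to a level above the WT libraries. Its DMSO difference from WT was -2.58 (adjusted p = 1.1e-08), and its difference in antimycin, 0.54, was not called (adjusted p = 0.0758). In nhr-178 it was also low in DMSO, at 2.99 to 5.15 CPM, and stayed at 0.620 to 2.57 CPM in antimycin. nlp-33 and cnc-4 likewise started lower in the mutant, by called differences of -0.73 and -1.5. In antimycin nlp-33 was called higher than in WT (0.63, adjusted p = 0.00174) and cnc-4 was not (0.53, adjusted p = 0.279). Over the 309 new inductions, the DMSO level was called lower for 25 (background 0.82%) and higher for 7 (0.719%), and in 104 every nhr-45 library in DMSO lay below every WT library (7.42% of all genes). These comparisons reuse the sorting libraries, and the DMSO levels enter the interaction.

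Other named new inductions were acs-2, hlh-30, dve-1, nhr-19, nhr-1 and icl-1. acs-2, an acyl-CoA synthetase gene that is a common readout of mitochondrial fatty acid oxidation, was at 13.2, 13.4 and 10.1 CPM in WT in DMSO and 18.9, 12.7 and 13.1 CPM in WT in antimycin. In nhr-45 it went from 5.73, 4.03 and 9.31 to 47.9, 60.2 and 56.8 CPM (interaction 2.89 ± 0.34, adjusted p = 2.7e-06). Its DMSO level was called lower in the mutant (-0.98, adjusted p = 0.0416). hlh-30, the TFEB orthologue that controls autophagy and lysosomal genes, went from 106, 104 and 93.8 to 188, 174 and 183 CPM in nhr-45 and was at 151, 157 and 167 CPM in DMSO and 132, 129 and 117 CPM in antimycin in WT (interaction 1.17 ± 0.19, adjusted p = 2.9e-04). It too started lower in the mutant in DMSO (-0.64, adjusted p = 0.00856). dve-1, a homeodomain factor gene of the mitochondrial unfolded protein response, went from 17.7, 11.6 and 12.1 to 43.8, 47.3 and 36.5 CPM in nhr-45, while WT stayed between 14.7 and 23.6 CPM in all 6 libraries. It was the 1 call among 16 genes of that response, where 4.68% of all genes were called. The chaperone genes hsp-6 and hsp-60 gave 0.15 ± 0.18 and 0.02 ± 0.16. Of 106 nuclear hormone receptor genes, nhr-19, which overlaps mrpl-53 (2.38 ± 0.35), and nhr-1 (0.91 ± 0.26) were called higher, where 3.39% of all genes were. icl-1, whose product runs the glyoxylate shunt, gave 1.17 ± 0.28.

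Of 23 intestine markers, the interaction was called higher for 4 (3.39% of all genes) and lower for 1 (1.29%), the last being cpr-1. ifb-2, an intestinal intermediate filament gene, went from 157, 120 and 170 to 471, 405 and 520 CPM in nhr-45 against 154, 143 and 144 to 209, 196 and 200 CPM in WT (interaction 1.19 ± 0.20, adjusted p = 2.9e-04). The summed intestine level was 3691 to 4458 CPM in WT in antimycin and 4253 to 4534 in nhr-45 in antimycin. Of 22 muscle genes, tni-1 (troponin I) and myo-2 (pharyngeal myosin) were called higher, by 1.39 ± 0.22 and 1.35 ± 0.23, and unc-54 lower.

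**Figure D5:**
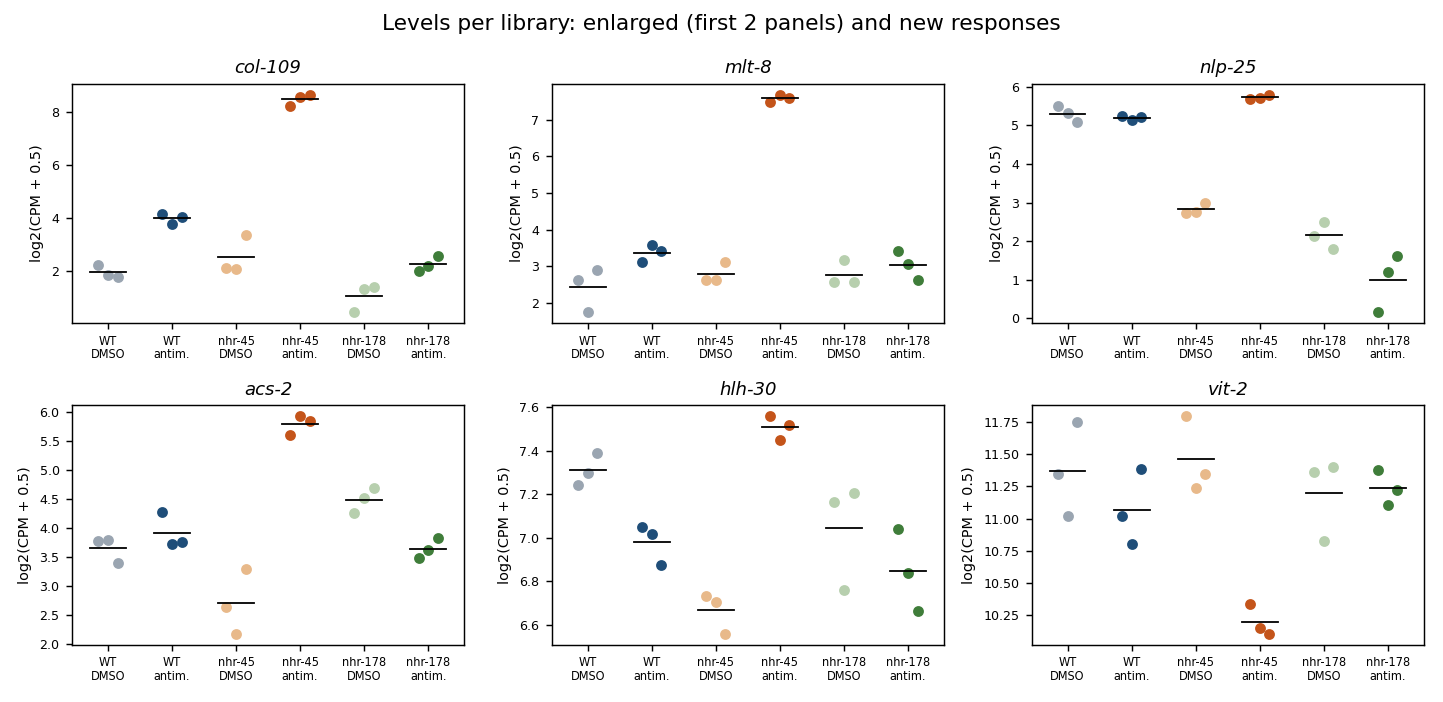
Levels as log2(CPM + 0.5) on the y axis for each of the 18 libraries, by group on the x axis, for 2 enlarged genes (col-109, mlt-8), 3 new inductions (nlp-25, acs-2, hlh-30) and 1 new repression (vit-2); points are libraries and bars are group means. The nhr-45 libraries in antimycin are the highest of the 4 WT and nhr-45 groups in the first 5 panels and the lowest in the panel for vit-2.

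New repressions were smaller, with a median log2 change of -0.80 in nhr-45 against 1.68 for new inductions. The yolk gene vit-2 was at 2597, 2075 and 3447 CPM in WT in DMSO and 2080, 1781 and 2671 CPM in WT in antimycin, which overlapped. In nhr-45 it fell from 3556, 2409 and 2607 to 1293, 1135 and 1099 CPM (interaction -0.97 ± 0.25, adjusted p = 0.0200). vit-4 gave -1.14 ± 0.27, and vit-3, which fell in both strains, fell further in nhr-45 by 1.01 ± 0.30; reads of these near-identical genes could be shared, and vit-2 overlaps C42D8.9. ech-6, an enoyl-CoA hydratase of the propionate shunt, went from 332, 335 and 364 to 242, 207 and 214 CPM in nhr-45 and from between 263 and 338 to between 307 and 429 CPM in WT (interaction -0.89 ± 0.19, adjusted p = 0.00496). Of 28 oocyte and eggshell genes, 1 was called lower in the interaction, which is clec-87 (overlapping iars-2). Of 26 germline genes 1 was, pgl-3, a germ granule component (1.29% of all genes). At an unadjusted p under 0.05, 11 and 7 were lower and 0 higher, where 2061 of all 10981 genes passed in either direction. Antimycin was called lower in nhr-45 for 21 and 14 of these genes (8.33% of all genes) and in WT for 0 and 2 (0.938%). The calls for clec-218, vit-2, vit-3, vit-4, nhr-1, icl-1, pgp-14, clec-87 and pgl-3 were lost in at least 1 alternative fit.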

How the data were processed

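RNA of whole early adults was sequenced, and the authors deposited 1 table of whole-number counts per gene, used here as deposited. The submitters' processing notes list RSEM, Bowtie2, R 3.6.3 and DESeq2 without saying what each did. The sources used here give no build, annotation, strand setting or handling of multiply mapping reads, so near-identical and overlapping genes are uncertain. All 18 columns matched a sample by title. Symbols (23161 genes) and WBcel235 positions (23363) were joined by WormBase identifier and may differ from the authors' build.

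All 18 libraries entered 1 fit of group means to the counts (edgeR 4.0.16, R 4.3.3), with TMM scaling, filterByExpr and 12 residual degrees of freedom. Tests are two-sided quasi-likelihood tests with Benjamini-Hochberg adjustment over 10981 genes, including mutant against WT within each treatment, which was added after the data were seen. An SE is the log2 fold change over the square root of F. Named genes have a mean of at least 5 CPM over the 12 libraries: the largest interactions of each class (12 lost, 4 reduced, 6 reversed, 8 enlarged, 12 and 8 new), the 10 closely kept with the largest WT change, up to 4 called and 3 kept per list, and a fixed set that includes nhr-45, hsp-6 and hsp-60. Genes named outside this rule, after their values were seen, are the unresolved detoxification genes, the peroxisomal genes, cyp-25A1, mfsd-13.2, emb-8, vem-1, hrg-7, slc-9B.1, pho-11 and E04D5.4. The members, lists and tests were chosen with earlier results of these data known. The fit and sorting were checked on simulated counts. Alternatives were other scaling, filters, thresholds, DESeq2 1.42.0, a replicate block, the 12 libraries alone and libraries left out. Genes with 0 to 3 counts in a group have no reliable fold change.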

Additional observations from a re-analysis of the deposited data

Results flagged for a closer look

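The interaction itself is a test of a difference between strains, and 514 genes were called in it. Among them are the 7 genes that antimycin moved in opposite directions in WT and nhr-45, each called in both strains and in the interaction by edgeR. Their interaction log2 values were 6.10 for col-10, 4.08 for E04D5.4, 3.67 for T26H5.9, 3.61 for dod-3, 3.34 for scl-2, 2.01 for clec-66 and 1.66 for ifa-4. E04D5.4 had a mean of 3.71 CPM over the 12 libraries, and ifa-4 overlaps K05B2.2 in the annotation. The reversal rests on single libraries for several: 2 of the 7 remained reversed without WT in antimycin replicate 3 or at an adjusted p under 0.01, 4 without WT in DMSO replicate 2 or 3, and 5 with the 12 libraries alone. With 3 libraries in each group, single libraries could not be checked for lying far from the rest.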

How the results depend on the processing

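The interaction called 514 genes, and between 426 and 691 under the other scalings, filters, tools, the 12 libraries alone and without both shallow libraries. With the replicate number as a block it called 490, and the block moved none of the counts by over 1.5 times; same-numbered libraries did not deviate together (r of -0.0858 to 0.0782 over 18 pairs). The 38 lost responses became 60 with DESeq2, which shared 37 of them, and 69 with no filter, which shared 32. A stricter filter left 1609 antimycin calls in nhr-45. At an adjusted p under 0.01 the calls were 226 for the interaction, 152 for antimycin in WT, 1396 in nhr-45 and 183 in nhr-178, with 22 lost, 48 kept, 19 enlarged and 172 new responses. With a 2-fold response required, 193 genes were called in WT and 1278 in nhr-45, and 48 responses were kept. Leaving out 1 library at a time gave 335 to 506 calls for the interaction, 173 to 364 in WT, 1836 to 2772 in nhr-45, 290 to 336 in nhr-178, 23 to 52 lost, 60 to 118 kept, 19 to 33 enlarged and 263 to 394 new. The interaction fell by more than 1.5 times when the third WT library in DMSO (335) or in antimycin (336) was left out. Lost responses did so without the same libraries (25 and 23), and 22 and 21 of the 27 lost inductions remained lost there, against 3 and 2 of the 11 lost repressions. Of those 11, 1 remained without WT in antimycin replicate 2, 3 without WT in DMSO replicate 1 and 2 at an adjusted p under 0.01. The 7 reversed genes came down to 2 without WT in antimycin replicate 3 and 2 at an adjusted p under 0.01. Kept responses were 61 when WT in DMSO replicate 2 was left out, and 70 and 60 for replicates 2 and 3 of WT in antimycin. Enlarged responses were 19 and 21 for replicates 1 and 3 of WT in DMSO and 21 for replicate 2 of WT in antimycin. New responses were 267 when WT in DMSO replicate 3 was left out and 263 when the third nhr-45 library in antimycin was. Leaving out replicate 1, 2 or 3 of WT in DMSO gave 218, 183 and 202 antimycin calls in WT, and leaving out replicate 2 or 3 of WT in antimycin gave 200 and 173. Of 139 genes named by the rule and called, none changed sign in 2772 pairs of gene and setting, and 83 stayed called throughout. Among those that did not were vit-2, vit-3, pgl-3, icl-1, nhr-1, clec-218, clec-87, rpl-25.1 and ucr-2.1. These settings did not include the adjusted p under 0.01 or the 2-fold requirement. For kept genes the call followed was that of antimycin in WT, and genes named outside the rule were not followed. Depth limits genes under 5 CPM, where the median SE of the interaction was 0.84, against 0.29 above it.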

Other observations

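The unresolved responses leaned one way: in 132 of 134 the estimated change was smaller in nhr-45 than in WT. The class required a call in WT and none in the same direction in nhr-45, and the same libraries enter that difference. The sorting thus largely set this lean, which is not a separate result.

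Position was not used in the sorting. Of the 27 lost inductions 12 lie on chromosome V, which holds 17.8% of all genes tested, 34.5% of kept inductions and 32.9% of unresolved inductions, and these include the neighbours ugt-9, ugt-11 and ugt-12, and ugt-1 and ugt-2. Of the 309 new inductions 85 lie on the X chromosome (27.5%, against 14.5% of all genes tested and 25% of kept inductions), while 1 of 31 enlarged inductions does.

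Among housekeeping lists, 1 of 78 cytosolic ribosomal protein genes and 0 of 66 mitochondrial ones were called by edgeR (4.68% of all genes). The call was for rpl-25.1 (interaction 0.67 ± 0.19). It was lost with the 12 libraries alone, with no filter and when most single libraries were left out. Of the mitochondrial ones, 3 were higher at an unadjusted p under 0.05 and 1 with DESeq2. Among 15 members of the complex III list, ucr-2.1, a core subunit of the complex that antimycin binds, went from 40.1, 37.1 and 41.4 to 71.3, 86.6 and 70.3 CPM in nhr-45 and from 41.5, 44.4 and 49.8 to 60.2, 46.6 and 47.6 CPM in WT (interaction 0.76 ± 0.22, adjusted p = 0.0464), a call that was lost when any 1 library was left out except WT in antimycin replicate 1, and also with the replicate block (adjusted p = 0.0561), with the 12 libraries alone (0.0812), with no filter (0.115) and without both shallow libraries (0.0531). lin-14, which sets larval timing and overlaps T25C12.11, gave 0.95 ± 0.19, with 151, 148 and 143 CPM in nhr-45 in antimycin above all 9 other libraries of the 4 groups.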
